A study of Mus musculus with 9 samples.

Results

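The oligoadenylate synthetases are interferon-induced proteins that recognise double-stranded RNA in the cytosol. An active synthetase joins ATP into short 2′-5′ linked oligoadenylates (2-5A), which carry the signal onward. Mice carry an enlarged Oas1 group beside Oas2, Oas3 and the synthetase-like genes Oasl1 and Oasl2, and in many cells interferon raises the mRNA of several of them together. The family described here was a given list of 8 genes, Oas1a, Oas1b, Oas1c, Oas1g, Oas2, Oas3, Oasl1 and Oasl2, found by gene name among 37325 names on the array. All 8 were measured, by 13 probes in total, and each of the 13 probes was well above background on all 9 arrays.

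The RNA came from mature megakaryocytes (mMKs) of male mice kept under pathogen-free conditions. The methods of the study describe wild-type C57BL/6 animals, and the labels give no age. Mice not exposed to IR formed the control group (Ctrl), sham-irradiated per the methods, and the other groups were sampled 1 day or 3 days post IR (dpi), after 5 Gy of gamma rays. Each group had 3 arrays, from separate experiments with different donors. The source was femur and tibia marrow after red cell lysis. Antibody enrichment for CD41 and then for CD42d followed, so each array read a bulk cell preparation. The paper describes the assay as RNA-seq and as an Affymetrix chip, whereas the deposited files are from Agilent 1-colour arrays labelled with Cy3. Between 69.1% and 81.8% of spots per array were well above background, lowest on Ctrl replicate 1, and 0 spots were saturated. That array had been run on slide 1, and the remaining 8 on slide 2 in a separate scan. With 3 arrays per group, an exact two-sided permutation test of 1 gene cannot give a p below 0.10, so calls came from limma fitted across all genes.

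The cell label was checked against 15 megakaryocyte markers, all measured. Their summed signal, where 1 is the 75th percentile of an array, was 170, 151 and 150 on the Ctrl arrays, 160, 148 and 145 at 1 dpi, and 169, 166 and 164 at 3 dpi. Pf4, a platelet chemokine, had the brightest probe of them. In limma 0 of the 15 had both an adjusted p under 0.05 and a change of at least 2-fold in any comparison. Their log2 fold changes ran from -0.82 to 0.69 at 1 dpi and from -0.54 to 0.95 at 3 dpi. At an unadjusted p under 0.05 with no minimum fold change 3 were higher and 5 lower at 1 dpi, and 6 were higher and 1 lower at 3 dpi. From 1 to 3 dpi 9 were higher and 1 lower by that measure. The megakaryocyte signal was therefore present on every array, at a similar summed level in the 3 groups.

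All values below are log2 signals relative to the array's own 75th percentile, and each gene is read by its brightest probe unless another is named. In log2 that percentile was 10.03, 10.62 and 10.66 on the Ctrl arrays and 10.37, 10.55 and 10.53 at 3 dpi. At 1 dpi it was lower on every array, at 9.33, 9.45 and 9.43. Scaling therefore raised the 1 dpi values relative to both other groups, and the cause of the difference was not tested. A gene is said to rise or fall where limma gave an adjusted p under 0.05 and the change was at least 2-fold. The probes of the Oas1 group, Oas2 and Oas3 lay within 191 kb of mouse chromosome 5 (build mm9), and those of Oasl1 and Oasl2 within 25.8 kb of the same chromosome. Because Oas1 genes resemble each other, probe sequences are given for those whose specificity matters. The Oas1a probe (chr5:121346794-121346735, minus strand) and the probe of Oas1f, an Oas1 gene outside the 8 (chr5:121307929-121307988, plus strand), matched at 41 of 58 aligned bases with a longest shared stretch of 14, and capitals mark the bases identical between them. The Oas1g probe (chr5:121332059-121332000, minus strand) is printed with no capitals because it has no such partner.
Oas1a: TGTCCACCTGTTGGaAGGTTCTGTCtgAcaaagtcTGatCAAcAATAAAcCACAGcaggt
Oas1f: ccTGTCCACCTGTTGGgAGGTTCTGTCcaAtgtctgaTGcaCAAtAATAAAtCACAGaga
Oas1g: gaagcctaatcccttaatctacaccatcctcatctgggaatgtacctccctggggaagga
Among the other pairs of probes from different genes of the 8 and the 4 further Oas1 genes (146 pairs in all), the largest number of identical bases was 29, or 27 between members, and the longest shared stretch was 10. RefSeq lists the transcripts annotated to the Oas1a probe under both Oas1a and Oas1g, so for this probe the signals of these genes cannot be told apart, whereas the Oas1g probe is annotated to Oas1g alone.

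At 1 dpi most of the family rose. Of the 8 members 6 rose, namely Oas1a, Oas1g, Oas2, Oas3, Oasl1 and Oasl2, by 2.17-fold to 5.49-fold, against 12.3% of the 29410 genes tested. None of the 8 fell (0 in limma, 0 at an unadjusted p under 0.05, and 0 by the methods' t-test), where 2.87% of all genes did. Oas1b and Oas1c stayed under 2-fold. The arrays of the groups did not overlap for 8 of 8 members, as for 67.5% of all genes. Across the 8 the median log2 fold change was 1.38, next to a median of 0.25 over all genes tested, and 1.14 once that general shift was subtracted.

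Oasl1 and Oasl2 changed most. Oasl1, a synthetase-like protein without 2-5A activity that restrains translation of Irf7 mRNA, read 1.65, 1.76 and 1.71 on the Ctrl arrays, 4.17, 4.18 and 4.14 at 1 dpi and 2.55, 2.44 and 2.48 at 3 dpi. The 1 dpi arrays were far above all others, and the 3 dpi arrays lay between them and Ctrl without touching either. Its log2 fold change at 1 dpi was 2.46 ± 0.06 (SE, n = 3 per group, 5.49-fold, adjusted p = 2.42e-07 in limma), which placed it 370th from the highest of 29410 genes. Oasl2 joins a synthetase unit to ubiquitin-like domains. Its signal was 2.14, 2.14 and 2.10 on the Ctrl arrays, 4.38, 4.31 and 4.34 at 1 dpi and 2.87, 2.83 and 2.80 at 3 dpi. Again the 3 groups were fully separate, in the order 1 dpi, 3 dpi, Ctrl. At 1 dpi Oasl2 was 2.21 ± 0.05 higher on the log2 scale (4.64-fold, adjusted p = 2.5e-07 in limma), 497th from the highest.

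Oas1a and Oas1g encode the Oas1 enzymes of the mouse that make 2-5A. Oas1a read 3.86, 3.87 and 3.86 on the Ctrl arrays, 5.24, 5.20 and 5.18 at 1 dpi and 4.62, 4.48 and 4.47 at 3 dpi. Ctrl arrays differed by less than 0.02 among themselves, and each later group stood clear of them. The log2 fold change of Oas1a at 1 dpi was 1.35 ± 0.06 (2.54-fold, adjusted p = 3.34e-06 in limma). For Oas1g the arrays gave -2.19, -2.02 and -2.04 in Ctrl, -0.46, -0.41 and -0.45 at 1 dpi and -1.42, -0.98 and -0.93 at 3 dpi. The 3 dpi arrays of Oas1g were the most spread of any member (SD 0.27), with replicate 1 nearest to Ctrl. At 1 dpi Oas1g was 1.64 ± 0.13 higher (3.12-fold, adjusted p = 4.62e-05 in limma), the largest change among the Oas1 members.

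Oas2 and Oas3 are the longer synthetases, built of several synthetase units. Oas2 read 3.35, 3.17 and 3.17 on the Ctrl arrays, 4.35, 4.38 and 4.31 at 1 dpi and 3.69, 3.57 and 3.53 at 3 dpi, with no overlap between the groups. Its log2 fold change at 1 dpi, 1.12 ± 0.07 (2.17-fold, adjusted p = 2.13e-05 in limma), was the smallest of the 6 and fell under 2-fold with quantile normalization (0.99), with scaling to the array median (0.80), in the deposited matrix (0.99) and after subtraction of the all-gene median (0.87). Oas3 gave -0.08, -0.41 and -0.42 in Ctrl, 1.01, 1.13 and 1.22 at 1 dpi and -0.31, -0.18 and -0.18 at 3 dpi. Here only the 1 dpi arrays stood apart, and the 3 dpi arrays lay within the range of the Ctrl arrays. At 1 dpi Oas3 was 1.42 ± 0.11 higher (2.68-fold, adjusted p = 4.34e-05 in limma).

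Oas1b and Oas1c did not reach 2-fold. RefSeq's table lists Oas1b of the reference strain, C57BL/6J, as a transcribed pseudogene, and its brightest probe read 4.39, 4.50 and 4.49 in Ctrl, 4.94, 4.91 and 4.90 at 1 dpi and 4.67, 4.44 and 4.41 at 3 dpi. The log2 difference at 1 dpi was 0.46 ± 0.08 (adjusted p = 0.00236 in limma), above the all-gene median by 0.21. Oas1c, an Oas1 protein without known 2-5A activity, read -0.20, -0.29 and -0.33 in Ctrl, -0.07, -0.05 and -0.08 at 1 dpi and -0.30, -0.34 and -0.44 at 3 dpi. All 1 dpi arrays exceeded all Ctrl arrays, but by little. Its log2 difference of 0.21 ± 0.06 (adjusted p = 0.0267 in limma) was 15375th of 29410 from the highest, near the middle of all genes, and turned to -0.11 with scaling to the array median and to -0.04 after subtraction of the all-gene median. Within slide 2, that is without Ctrl replicate 1, 6 members were again called, and the median of the 8 was 1.44.

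**Figure D1:**
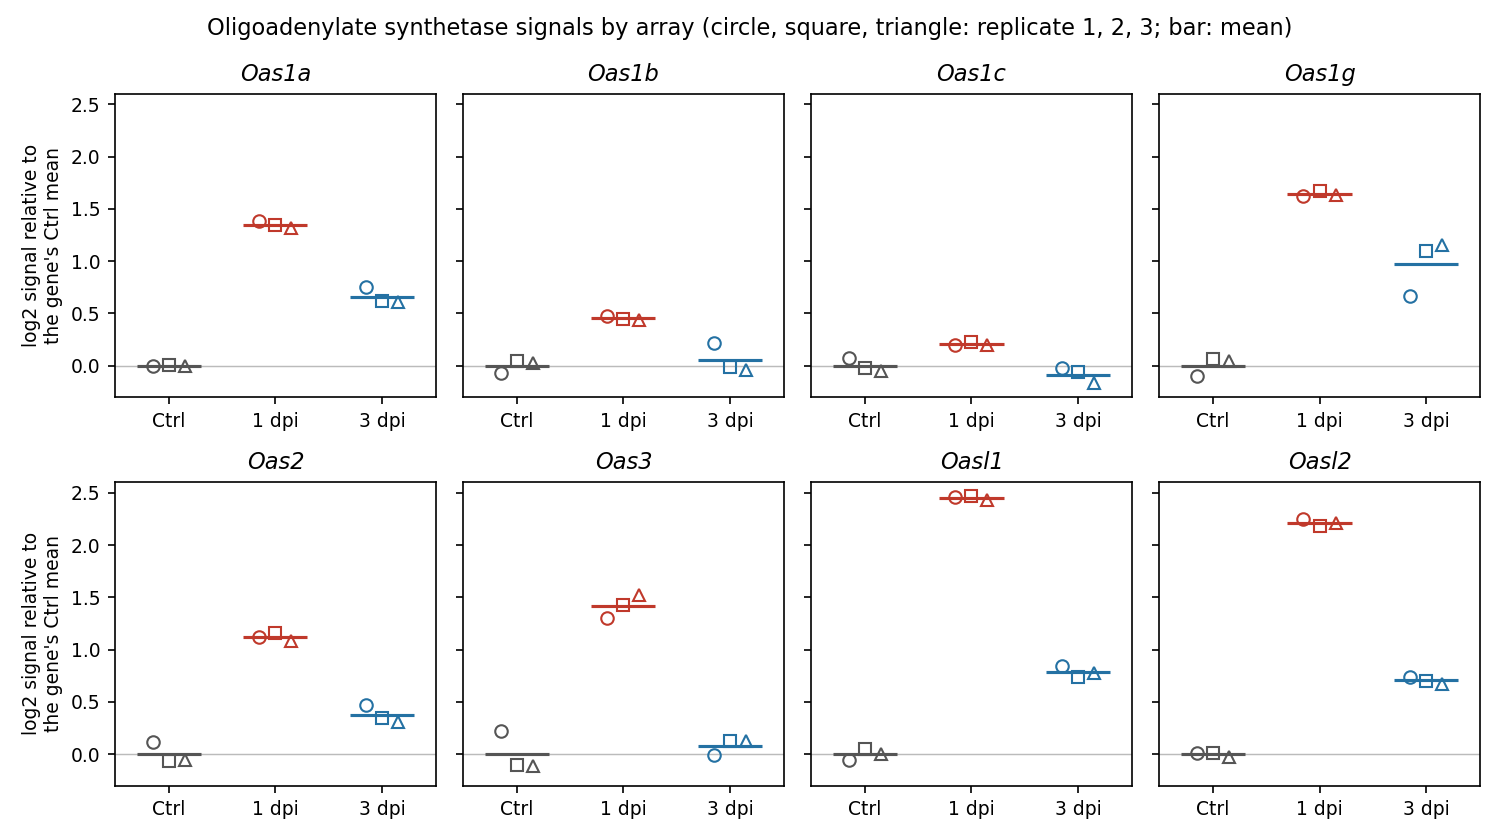
Log2 signal of each family member on the 9 arrays, relative to the mean of its own Ctrl arrays (y axis), by group (x axis); symbols are arrays and bars are group means of 3 arrays. Oasl1 and Oasl2 sit highest at 1 dpi, at means of 2.46 and 2.21, whereas Oas1c moves by 0.21 there, a difference that turns negative with scaling to the array median or subtraction of the all-gene median.

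At 3 dpi the family was closer to Ctrl and no member was called. In limma 0 of 8 members rose, compared with 6.98% of all 29410 genes tested, and 0 fell, compared with 1.82%. At an unadjusted p under 0.05 and with no minimum fold change 5 were higher and 0 lower. At an adjusted p under 0.05 with no minimum 5 were higher too, as were 4963 of the 29410 genes. The methods' t-test with the 2-fold minimum called 0. The same number, 5 of 8, had arrays that did not overlap with Ctrl (Oas1a, Oas1g, Oas2, Oasl1 and Oasl2), against 47% of all genes. The median log2 fold change of the 8 was 0.51, or 0.40 relative to the all-gene median of 0.11.

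Among those 5, Oas1g came nearest to the 2-fold limit. Its log2 difference was 0.97 ± 0.13 (1.96-fold, adjusted p = 0.000865 in limma), and it passed the limit without Ctrl replicate 2 (1.00) or without 3 dpi replicate 1 (1.13). Oasl1 differed by 0.79 ± 0.06 (adjusted p = 3.69e-05 in limma). For Oasl2 the difference was 0.70 ± 0.05 (adjusted p = 4.23e-05 in limma). These members, and Oas1a at 0.66 ± 0.06, were still clearly above every Ctrl array although under 2-fold. Oas2 was smaller, at 0.37 ± 0.07 (adjusted p = 0.00669 in limma).

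The other members, Oas3, Oas1b and Oas1c, overlapped with Ctrl at 3 dpi. Oas3 differed by 0.08 ± 0.11 (adjusted p = 0.602 in limma), a sign that turned with scaling to the array median (-0.04) and after subtraction of the all-gene median (-0.03). Oas1b differed by 0.05 ± 0.08, and its sign turned in 6 of 24 alternative fits, among them the deposited matrix (-0.54), the mean of its probes (-0.12) and the fit without 3 dpi replicate 1 (-0.03). For Oas1c the value was -0.09 ± 0.06. Within slide 2 the median of the 8 members at 3 dpi was 0.54, and 0 were called.

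**Figure D2:**
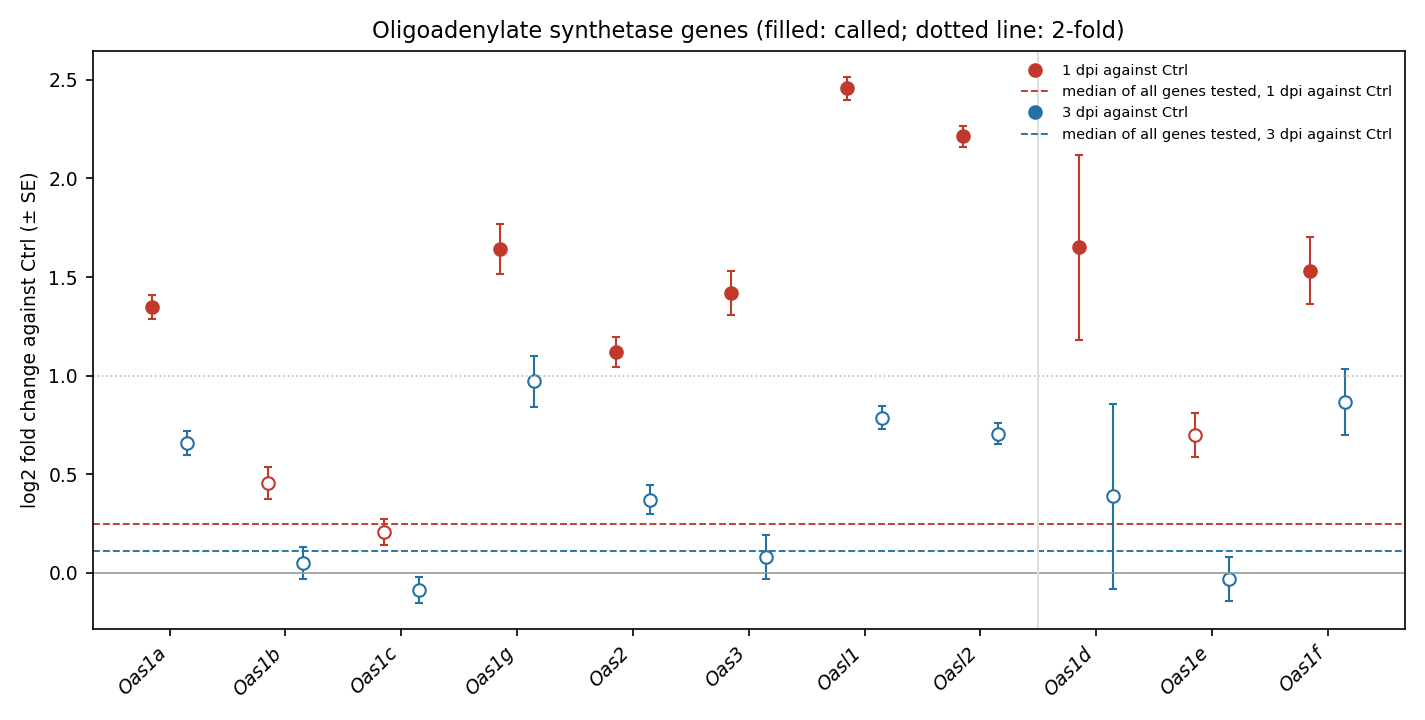
Log2 fold change against Ctrl with its SE (y axis, n = 3 arrays per group) for the 8 members and the other Oas1 genes tested (x axis), at 1 and 3 dpi; dashed lines are all-gene medians. The 6 called members lie between 1.12 and 2.46 at 1 dpi, although Oas2 is under 2-fold with other scalings.

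From 1 to 3 dpi the signal of every member was lower, to different extents. Of the 8 members 3 fell, Oas3, Oasl1 and Oasl2, where 4.82% of all 29410 genes fell. None rose (0 in limma, 0 at an unadjusted p under 0.05, 0 by the methods' t-test), compared with 3.97% of all genes. With no minimum fold change all 8 were lower at an unadjusted p under 0.05. All 8 were also lower at an adjusted p under 0.05 with no minimum, as were 7310 of the 29410 genes. The arrays of 1 and 3 dpi did not overlap for 8 of 8 members, against 65.5% of all genes. The median log2 fold change from 1 to 3 dpi was -0.72, or -0.61 relative to an all-gene median of -0.11. As both time points were compared with the same Ctrl arrays, this contrast is also the test of whether the effects against Ctrl differed.

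Oasl1 dropped most from 1 to 3 dpi, by -1.67 ± 0.06 on the log2 scale (adjusted p = 5.37e-06 in limma), 288th from the lowest of all genes. Oasl2 followed at -1.51 ± 0.05 (adjusted p = 5.37e-06 in limma). Oas3 changed by -1.34 ± 0.11 (adjusted p = 0.000101 in limma). Of the 3, Oas3 was the member back at its Ctrl level, whereas Oasl1 and Oasl2 remained above every Ctrl array. Oas1a differed by -0.69 ± 0.06 (adjusted p = 0.000138 in limma), Oas1g by -0.67 ± 0.13 (adjusted p = 0.00429) and Oas2 by -0.75 ± 0.07 (adjusted p = 0.000233). Smaller differences were measured for Oas1b, -0.41 ± 0.08, and for Oas1c, -0.29 ± 0.06, with every 3 dpi array below every 1 dpi array. In the order of group means, 1 dpi was highest for all 8 members, and Ctrl was lowest for all but Oas1c, whose 3 dpi and Ctrl arrays overlapped. For Oas1b and Oas3 too, the 3 dpi and Ctrl arrays overlapped, so that their order is not resolved.

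The probes printed next are those of the members called lower from 1 to 3 dpi, from chr5:121203657-121203598 (Oas3, minus strand), chr5:115387861-115387920 (Oasl1, plus strand) and chr5:115362168-115362227 (Oasl2, plus strand) of mm9. They carry no capitals, and each is annotated to its own gene alone.
Oas3: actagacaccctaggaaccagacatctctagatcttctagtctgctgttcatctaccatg
Oasl1: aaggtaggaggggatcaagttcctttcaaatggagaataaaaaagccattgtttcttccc
Oasl2: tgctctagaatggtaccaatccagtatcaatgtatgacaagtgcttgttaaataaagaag

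Counted by probe, 8 of the 13 rose at 1 dpi, compared with 11.6% of the 44300 probes tested. At 3 dpi 0 of the 13 rose in limma, compared with 6.58% of probes, while at an unadjusted p under 0.05 7 were higher and 1 lower and the methods' t-test called 0. From 1 to 3 dpi 5 of the 13 fell, compared with 5.03% of probes. All 13 were above Ctrl at 1 dpi and all 13 were lower at 3 dpi than at 1 dpi, and at 3 dpi 9 lay above Ctrl and 4 below. Probes of 1 gene share its RNA and are no replicates. The probes of Oasl1 gave 2.46 and 2.62 at 1 dpi, and those of Oas2 differed by less than an SE. Those of Oas1c differed more, at 0.21 and 0.54.

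Oas1b was the member whose probes differed most. Its brightest probe, probe 1 (chr5:121274109-121274168), gave 0.46 ± 0.08 at 1 dpi, probe 2 (chr5:121273890-121273949) 0.65 ± 0.09 and probe 3 (chr5:121267702-121267761) 0.90 ± 0.11. None of the 3 reached 2-fold. From 1 to 3 dpi the values were -0.41, -0.76 and -1.20, and the last was called lower in limma (adjusted p = 0.000179). RefSeq's table lists the annotated transcripts of probes 2 and 3 under Oas1b and holds none of those of probe 1. All lie on the plus strand of mm9, and they are printed, without capitals, because the size of the Oas1b response depends on which is read.
Oas1b probe 1: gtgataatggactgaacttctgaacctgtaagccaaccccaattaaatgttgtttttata
Oas1b probe 2: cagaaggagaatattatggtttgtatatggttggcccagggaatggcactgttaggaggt
Oas1b probe 3: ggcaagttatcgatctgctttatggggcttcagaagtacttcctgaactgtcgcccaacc
Probe 3 read -4.93, -4.92 and -4.71 in Ctrl, -4.05, -3.94 and -3.88 at 1 dpi and -5.35, -5.16 and -4.96 at 3 dpi. On this probe all 3 dpi arrays were below all Ctrl arrays, which was not so on probe 1.

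**Figure D3:**
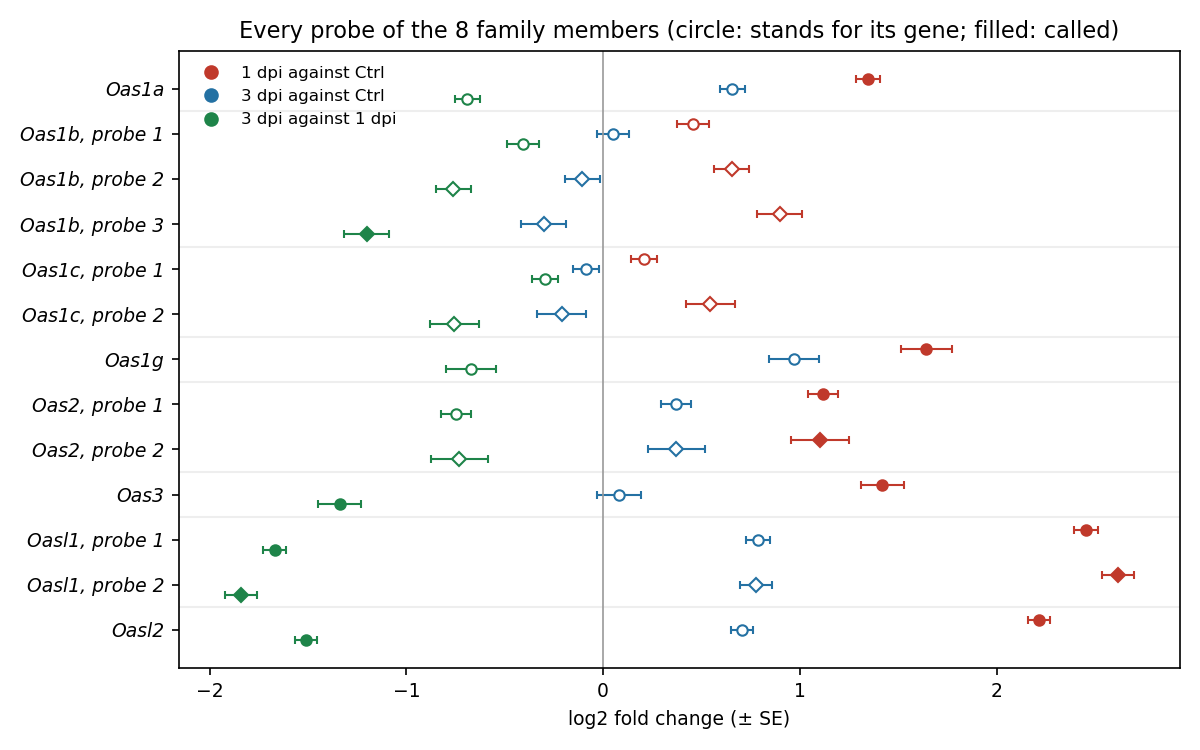
Log2 fold change with its SE (x axis, n = 3 arrays per group) of each of the 13 probes of the family (y axis) in the 3 comparisons; circles are the probes that stand for their gene. All 13 lie above 0 at 1 dpi, although Oas1c turns negative with other scalings, and all 13 lie below 0 from 1 to 3 dpi.

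The deposited log2 matrix has a single value per gene name, and for 5 of the 8 members it follows the probe used here. For Oas1b, Oas1c and Oasl1 it follows a dimmer probe. In the matrix Oasl1 was 2.64 higher at 1 dpi and 0.77 higher at 3 dpi, and Oas1b changed by -1.01 from 1 to 3 dpi, past the 2-fold limit that its brightest probe did not reach. The median of the 8 members in the matrix was 1.27 at 1 dpi, 0.45 at 3 dpi and -0.84 from 1 to 3 dpi. The direction of the family at 1 dpi was thus the same in the authors' values, with Oas2 at 0.99, just under 2-fold.

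Further Oas1 genes lie in the same cluster. Of the 4 outside the 8, Oas1d, Oas1e and Oas1f were tested and Oas1h was not, since neither of its probes was well above background on all arrays of any group. In limma 2 of the 3 tested rose at 1 dpi, and 0 were called at 3 dpi, where 1 was higher at an unadjusted p under 0.05. Oas1f read 1.64, 2.30 and 2.29 in Ctrl, 3.68, 3.57 and 3.57 at 1 dpi and 2.97, 2.90 and 2.96 at 3 dpi. Ctrl replicate 1 was low, yet every 1 dpi array was above every other array. Its log2 fold change at 1 dpi was 1.53 ± 0.17 (adjusted p = 0.000229 in limma), and 1.32 without Ctrl replicate 1. The likeness of its probe to that of Oas1a is shown by the sequences above, and how much of either signal came from the other gene was not tested.

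Oas1d read -5.27, -3.51 and -3.47 in Ctrl, -2.35, -2.24 and -2.71 at 1 dpi and -3.54, -4.10 and -3.44 at 3 dpi. Ctrl replicate 1 stood far below the others, so the error was large, at 1.65 ± 0.47 for 1 dpi (adjusted p = 0.019 in limma). The value was 1.06 without Ctrl replicate 1, still called, but the call was lost without 1 dpi replicate 1 (1.61), without 1 dpi replicate 2 (1.56) and by the methods' t-test. From 1 to 3 dpi Oas1d differed by -1.26 ± 0.47 (adjusted p = 0.061 in limma) and was called lower without Ctrl replicate 1, with the same value, and with several other settings. At 3 dpi its difference from Ctrl, 0.39, turned to -0.20 without that array. Oas1e differed by 0.70 ± 0.11 at 1 dpi and by -0.03 ± 0.11 at 3 dpi, a sign that turned without 3 dpi replicate 2 (0.03), and was not called.

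Genes linked to 2-5A were read beside the family. Abce1, a ribosome recycling factor of that list, was not called against Ctrl. It differed by -0.50 ± 0.08 at 1 dpi (adjusted p = 0.00189 in limma) and by 0.03 ± 0.08 at 3 dpi, a sign that turned in 6 alternative fits, among them scaling to the array median (-0.09) and the deposited matrix (-0.86), and on its second probe (-0.70). Pde12, which degrades 2-5A, differed by 0.83 ± 0.22 at 1 dpi on its brightest probe but by -0.35 ± 0.07 on another that was above background on all arrays, so that no direction can be given. Akap7, a kinase anchor whose phosphodiesterase domain can cleave 2-5A, read 2.69, 3.90 and 4.05 in Ctrl, 4.72, 4.86 and 4.85 at 1 dpi and 4.30, 4.25 and 4.34 at 3 dpi. The low Ctrl replicate 1 carries its call. At 1 dpi Akap7 was called at 1.26 ± 0.32 (adjusted p = 0.0115 in limma), but the value without that array was 0.84, not called, and the other probes gave -0.18 and -0.40.

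Because several members moved together, their promoters were searched for motifs of interferon signalling. RefSeq sequence (build GRCm38.p6) from 250 bases before to 50 after the start was at hand for 6 of the 8 members, and not for Oas1b and Oas2. The searches covered both strands for GAAANNGAAA, the core of an interferon-stimulated response element (ISRE), and for AANNGAAA, the shorter core bound by interferon regulatory factors, which every GAAANNGAAA match also contains. Of 32851 promoters of this length, 3.44% held GAAANNGAAA and 23.9% held AANNGAAA. Among the 6 members 4 held GAAANNGAAA and 5 held AANNGAAA. In the sequences, printed 5′ to 3′ in the direction of each gene, capitals mark the matches.
Oas1a: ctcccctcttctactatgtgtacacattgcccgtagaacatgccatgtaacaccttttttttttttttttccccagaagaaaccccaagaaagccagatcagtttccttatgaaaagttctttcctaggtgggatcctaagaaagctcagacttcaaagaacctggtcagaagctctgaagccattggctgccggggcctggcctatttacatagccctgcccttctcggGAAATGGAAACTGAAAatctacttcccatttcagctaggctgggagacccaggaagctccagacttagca
Oas1g: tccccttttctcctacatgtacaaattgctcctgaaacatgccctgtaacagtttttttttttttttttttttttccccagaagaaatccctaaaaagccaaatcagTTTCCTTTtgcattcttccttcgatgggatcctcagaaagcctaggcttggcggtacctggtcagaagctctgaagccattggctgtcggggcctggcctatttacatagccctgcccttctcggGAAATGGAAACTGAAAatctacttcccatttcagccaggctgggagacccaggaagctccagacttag
Oas1c: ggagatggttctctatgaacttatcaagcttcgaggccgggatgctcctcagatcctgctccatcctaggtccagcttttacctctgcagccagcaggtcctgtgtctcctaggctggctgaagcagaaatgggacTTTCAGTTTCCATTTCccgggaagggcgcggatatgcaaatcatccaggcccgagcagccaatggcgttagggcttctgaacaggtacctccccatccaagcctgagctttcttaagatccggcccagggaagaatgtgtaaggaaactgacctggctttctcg
Oas3: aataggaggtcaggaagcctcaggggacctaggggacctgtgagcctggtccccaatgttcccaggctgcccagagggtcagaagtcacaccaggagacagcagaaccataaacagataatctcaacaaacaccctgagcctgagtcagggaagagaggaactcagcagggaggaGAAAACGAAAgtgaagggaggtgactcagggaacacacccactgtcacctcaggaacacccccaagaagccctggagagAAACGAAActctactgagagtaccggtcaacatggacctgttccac
Oasl1: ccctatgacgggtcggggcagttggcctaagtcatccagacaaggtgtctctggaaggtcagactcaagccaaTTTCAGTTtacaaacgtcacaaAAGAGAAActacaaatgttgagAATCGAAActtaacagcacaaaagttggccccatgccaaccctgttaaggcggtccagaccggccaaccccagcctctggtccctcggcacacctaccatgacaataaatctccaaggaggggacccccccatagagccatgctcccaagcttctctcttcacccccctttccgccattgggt
Oasl2: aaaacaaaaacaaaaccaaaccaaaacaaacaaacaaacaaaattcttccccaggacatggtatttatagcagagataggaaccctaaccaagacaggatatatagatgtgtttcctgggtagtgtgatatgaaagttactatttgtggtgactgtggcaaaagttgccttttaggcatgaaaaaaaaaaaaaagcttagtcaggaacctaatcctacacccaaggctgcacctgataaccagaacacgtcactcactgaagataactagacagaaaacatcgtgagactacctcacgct
These are chr5:120907476-120907775 (Oas1a), chr5:120887564-120887863 (Oas1g), chr5:120812465-120812764 (Oas1c) and chr5:120777610-120777909 (Oas3), all on the minus strand, and chr5:114922990-114923289 (Oasl1) and chr5:114896684-114896983 (Oasl2) on the plus strand.

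Oas1a and Oas1g promoters shared 85.3% identity, 261 of 306 aligned columns, the most alike of the family, and each had 2 overlapping GAAANNGAAA matches close to the start, whose first bases lay at -20 and -14 in Oas1a and at -18 and -12 in Oas1g, counted from -1 for the base before the start. Oas1c also had 2, on the opposite strand at -114 and -108, and its mRNA differed by 0.21 at 1 dpi. Oas1g had a further AANNGAAA match at -143. Oas3 had 1 GAAANNGAAA match, at -75, and a second AANNGAAA match at 5. Oasl1 and Oasl2 changed most at 1 dpi, yet Oasl1 had 3 AANNGAAA matches (-177, -155 and -133) and 0 of GAAANNGAAA, and Oasl2 had 0 of either in this window. A match only says that the letters are there, and its absence only that they are not in this window.

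Each member was also set beside the other genes tested, by the root mean square difference over the 9 arrays of log2 values relative to each gene's Ctrl mean. Nearest to Oasl1 were Isg15 (0.08), Bax (0.11) and an unnamed non-coding transcript (0.12). Nearest to Oasl2 were Bbc3 (0.07), Gbp9 (0.07) and Phyhipl (0.09). For Oas1a they were Trex1 (0.08), Rtp4 (0.09) and Il12rb1 (0.09), and for Oas1g Ccng1 (0.13), Lama5 (0.15) and 9130230L23Rik (0.16). Oas3 was nearest to Ung (0.08), Srek1 (0.09) and Ephb3 (0.09), and Oas2 to Soat2 (0.03), Mirt2 (0.03) and Oosp1 (0.05). The likeness of Srek1 rests on its brightest probe, as the deposited matrix, which follows another, had -1.37 at 1 dpi. Oas1b was nearest to Eif3k, Mafa and 2410015M20Rik (0.03 to 0.04), and Oas1c to Samd9l, Rpl18 and Rab40c (0.04 each).

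The family can be read beside the other interferon-stimulated genes. Of 25 listed, 18 rose and 0 fell at 1 dpi in limma (25 higher and 0 lower at an unadjusted p under 0.05), with a median of 1.37, next to 1.38 for the 8 members. The largest were Ifit3 (3.82 ± 0.07), Cxcl10 (3.20 ± 0.06), Ifit1 (3.06 ± 0.08) and Rsad2 (2.98 ± 0.07), all larger than the change of Oasl1. At 3 dpi 7 of the 25 rose, led by Ifit3 (2.18 ± 0.07), Mx1 (1.77 ± 0.10), Cxcl10 (1.53 ± 0.06) and Ifit1 (1.49 ± 0.08), with a median of 0.68, next to 0.51 for the members. From 1 to 3 dpi 9 of the 25 fell, with a median of -0.75, next to -0.72 for the members. Whether the members differ from this list was not tested.

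Upstream of the family, Ifnb1, which encodes interferon beta, was not above background on any Ctrl array, so its change is a bound. It was at least 6.02-fold higher at 1 dpi and at least 1.33-fold higher at 3 dpi. For these bounds the lowest signal above background on each array, or the gene's own if higher, stood for Ctrl. Ifnb1 passed the filter only through the groups after IR, so no p against Ctrl is given for it. In the interferon signalling list 6 of 18 genes rose and 0 fell at 1 dpi (10 higher and 3 lower at an unadjusted p under 0.05), Irf7 by 2.14 ± 0.08, Usp18 by 2.09 ± 0.06 and Irf1 by 1.48 ± 0.07. Stat2 rose by 1.04 ± 0.07, under 2-fold in 3 alternatives (0.72 to 0.99). Irf9 differed by 0.32 ± 0.05, Ifnar1 by 0.62 ± 0.07 and Ifnar2 by -0.27 ± 0.08, none of them called. At 3 dpi 1 of the 18 rose, Irf7 (1.25 ± 0.08), and 0 fell (10 higher and 2 lower at an unadjusted p under 0.05). Oasl1, the restrainer of Irf7 translation, was thus called at 1 dpi, as was Irf7, and at 3 dpi Oasl1 was under 2-fold.

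Other sensors of foreign nucleic acid were read beside the family. Of 13 RNA sensing genes tested, with the endosomal receptors Tlr3 and Tlr7 among them, 5 rose and 0 fell at 1 dpi (8 higher and 2 lower at an unadjusted p under 0.05), Zbp1 by 2.54 ± 0.09, Trim25 by 1.49 ± 0.07 (0.77 as the mean of its probes), Dhx58 by 1.36 ± 0.07 and Tlr3 by 1.29 ± 0.19 (under 2-fold with quantile normalization, 0.84, or scaling to the array median, 0.98). At 3 dpi 3 rose and 0 fell (7 higher and 1 lower at an unadjusted p under 0.05), Zbp1 (1.33 ± 0.09), Tlr7 (1.16 ± 0.09) and Tlr3 (1.05 ± 0.19, under 2-fold in 5 of the alternatives and without any of 3 single arrays). Of 7 genes of DNA sensing 2 rose at 1 dpi, Ifi204 (1.82 ± 0.06) and Trex1 (1.48 ± 0.07), and 0 fell (4 higher and 1 lower at an unadjusted p under 0.05), the lowest being Tbk1 (-0.80 ± 0.13). At 3 dpi 1 rose and 0 fell (3 higher and 2 lower at an unadjusted p under 0.05), Ifi204 (1.85 ± 0.06). Cgas differed by -0.15 ± 0.07 and Sting1 by 0.19 ± 0.07 at 1 dpi, signs that each turned in 2 alternatives, among them the deposited matrix (Cgas, 0.59) and scaling to the array median (Sting1, -0.13).

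Since the preparations were bulk, a change in signal of the family and a change in the mix of cells cannot be told apart, and markers of other cell types moved with IR. Summed macrophage marker signal was 65.1, 58.6 and 56.4 in Ctrl, 85.3, 80.6 and 84.9 at 1 dpi and 156, 153 and 151 at 3 dpi, with 4 of 14 genes higher and 2 lower at 1 dpi, 10 higher at 3 dpi, and Csf1r brightest. Stromal markers (brightest Cxcl12) summed to 10.66, 10.26 and 10.79, then 52.4, 45.1 and 49.0, then 98.8, 89.9 and 97.3, with 8 of 12 higher at each time. Endothelial markers (brightest Stab2, with Flt4 not above background on some arrays) summed to 3.07, 2.82 and 2.84, then 5.02, 4.68 and 4.76, then 9.12, 7.65 and 7.90, with 3 of 8 higher at 1 dpi and 5 at 3 dpi. The sums of these lists were highest at 3 dpi.

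Several other sums were highest at 1 dpi, and that of B cell markers in Ctrl. A sum is weighted to the gene with the brightest probe, named for each list, and the brightness of different probes does not rank the abundance of their genes. Most genes of a list can differ from its sum. The median log2 fold change from 1 to 3 dpi was above 0 for monocyte (0.23), T and NK cell (0.55) and erythroid (0.62) markers and below 0 for dendritic cell (-0.41) and neutrophil (-0.61) markers. At 1 dpi the median was 0.01 for monocyte, 0.56 for T and NK cell, -2.09 for erythroid, -0.84 for dendritic cell and 0.55 for neutrophil markers. Of the neutrophil markers 12 of 13 were above 0 at 1 dpi, and at an unadjusted p under 0.05 10 were higher at 1 dpi and 10 lower from 1 to 3 dpi, while their median at 3 dpi was 0.03, next to 0.51 for the members. Neutrophil markers (brightest Mpo) summed to 1130, 1217 and 1202, then 2046, 1908 and 1880, then 1270, 1144 and 1206, with 3 of 13 higher at 1 dpi and 0 called at 3 dpi (2 higher and 1 lower at an unadjusted p under 0.05). Monocyte markers (brightest Ly6c2) summed to 172, 156 and 155, then 235, 228 and 222, then 179, 174 and 179, with 1 of 7 higher at 1 dpi and 2 at 3 dpi. Dendritic cell markers (brightest Siglech, with Xcr1 not tested and Bst2 also on the list of interferon-stimulated genes) summed to 23.8, 37.8 and 38.6, then 66.7, 62.9 and 61.4, then 37.7, 35.2 and 34.7, with 2 of 9 higher and 3 lower at 1 dpi and 2 lower at 3 dpi. Of the 2 higher, Siglech lost its call without Ctrl replicate 1 (0.70) and in several other alternatives. T and NK cell markers (brightest Nkg7, with Trac not tested) summed to 31.2, 33.0 and 31.4, then 46.0, 42.7 and 43.1, then 40.4, 36.8 and 35.7, with 2 of 10 higher at 1 dpi and 4 at 3 dpi. Erythroid markers (brightest Hba-a1, with Rhag among the genes not above background on some arrays) summed to 111, 90.9 and 93.8, then 247, 202 and 199, then 36.2, 36.5 and 33.9, with 2 of 11 higher and 8 lower at 1 dpi and 9 lower at 3 dpi. B cell markers (brightest Cd79b, with Rag1 not above background on some arrays) summed to 33.0, 31.6 and 32.4, then 7.92, 7.68 and 7.87, then 7.57, 6.96 and 7.18, with 10 of 12 lower at both times. The part of any of these cells in the signal of the family was not tested.

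**Figure D4:**
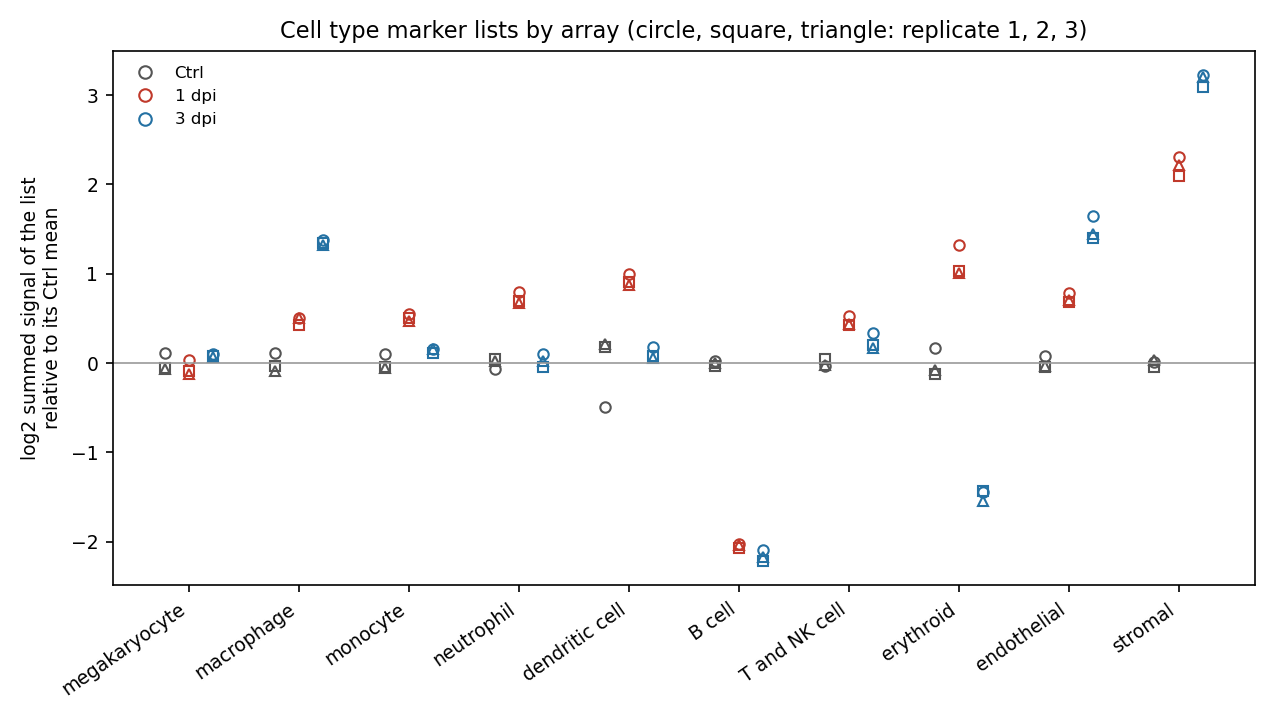
Log2 of the summed marker signal of each cell type list on the 9 arrays, relative to the mean of its Ctrl arrays (y axis), by list (x axis) and group. Megakaryocyte markers stay between -0.12 and 0.11, while stromal, endothelial and macrophage markers are highest at 3 dpi, at 3.17, 1.499 and 1.35, and B cell markers lowest, at -2.16.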

How the data were processed

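Total RNA of mMKs was read on 9 Agilent 1-colour arrays, 3 each for Ctrl, 1 dpi and 3 dpi. Per the file headers, spot intensities were background-subtracted and detrended by Agilent Feature Extraction 10.7.1.1 and not scaled between arrays. The deposited log2 matrix (27275 gene names, column medians 5.79 to 5.87) served as an alternative, and the authors do not state its normalization. Control spots (3671 of 62976 per array) and outlier flags were removed, the intensity of each probe was taken as log2 minus the 75th percentile of its array, and 44317 of 56605 probes were kept, those that every array of some group read as well above background. Names were updated through RefSeq accessions for 32994 probes, and the brightest probe stood for its gene. limma 3.58.1 (R 4.3.3) was fitted to 29410 genes on all 9 arrays, with Benjamini-Hochberg adjustment. A gene was called at an adjusted p under 0.05 and at least 2-fold.

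The members and lists were chosen with earlier results of these data known. Named genes were all members, the other Oas1 genes, Abce1, Pde12 and Akap7, up to 4 called genes with the largest change per pathway list and comparison with Ctrl, 8 interferon and DNA sensing genes given whatever their values, the gene with the brightest probe and the 2 largest changes of each marker list, and the 3 nearest genes of each member. Some listed genes, counted in their lists, are not reported here. Lists covered other interferon-stimulated genes, interferon signalling, RNA and DNA sensing, and markers of megakaryocytes and 9 other cell types. Alternatives were normexp background correction (offset 50), quantile and array-median scaling, the matrix, no or a stricter filter, file names alone, the mean of probes, only the groups compared, slide and replicate blocks, no minimum fold change, centring, the methods' t-test and leaving out each array. Motifs were searched with Python 3.11.15, and figures drawn with matplotlib 3.10.9.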

Additional observations from a re-analysis of the deposited data

Results flagged for a closer look

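Groups of 3 arrays were too small for a test of single arrays that stand apart. For 38 of the named genes the effect against Ctrl differed between 3 and 1 dpi by at least 2-fold, at an adjusted p under 0.05. Of all 29410 genes tested 2588 did so. Many named genes were picked for large changes, so the 38 are no result about them as a set. The test was limma's contrast of the time points, which share the Ctrl arrays. Smaller differences were not counted. The values are the effect at 3 dpi minus that at 1 dpi, on the log2 scale.

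Within the oligoadenylate synthetases the difference was -1.34 for Oas3, -1.67 for Oasl1 and -1.51 for Oasl2. Interferon signalling genes gave -2.18 for Ifnb1, -1.49 for Usp18 and -1.59 for Irf1. Nucleic acid sensing genes gave -1.21 for Zbp1, -1.31 for Trim25 and 1.06 for Tlr7. Other interferon-stimulated genes gave -1.64 for Ifit3, -1.66 for Cxcl10, -1.58 for Ifit1, -2.30 for Rsad2, -1.20 for Mx1 and -1.57 for Isg15. Like Oas3, Oasl1 and Oasl2, all of these but Tlr7 were lower at 3 dpi than at 1 dpi. Apart from Ifnb1 and Isg15, these pathway genes were named for a large change against Ctrl and listed for passing the contrast. Their shared direction is thus partly set by that choice, and they do not stand for their whole lists. Isg15 and further genes had been picked for being nearest to a member over the 9 arrays, so they share its direction by choice. These gave -1.26 for Ung, -1.27 for Srek1 (1.07 in the deposited matrix, which has another probe), -1.31 for Ephb3, -1.52 for Bax, -1.74 for an unnamed non-coding transcript, -1.55 for Bbc3, -1.45 for Gbp9 and -1.52 for Phyhipl.

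Of 15 marker genes of other cell types 14 were higher at 3 dpi than at 1 dpi, and Hba-a1 was lower. These 15 had the brightest probe or a largest change of their list and passed the contrast, so they do not stand for whole lists. Macrophage and monocyte markers gave 3.05 for Timd4, 1.00 for C1qb and 1.84 for Ccr2. Erythroid markers gave -2.82 for Hba-a1, 4.99 for Ahsp and 1.58 for Slc4a1. Stromal and endothelial markers gave 1.21 for Bglap, 3.48 for Adipoq, 2.35 for Lum and 1.53 for Stab2. Lymphoid and dendritic cell markers gave 1.46 for Vpreb3, 1.26 for Igll1, 1.04 for Gzma, 1.41 for Klrb1c and 1.59 for Cd209a. Over whole lists, at an unadjusted p under 0.05 in limma, 1 neutrophil marker was higher and 10 were lower from 1 to 3 dpi. Dendritic cell markers were 3 higher and 4 lower, B cell markers 5 and 5, and erythroid markers 8 and 3. The counts were 14 and 0 for macrophage, 4 and 1 for monocyte, and 6 and 3 for T and NK cell markers. For endothelial markers they were 6 and 1, and for stromal markers 8 and 1. Their part in the values of the synthetases was not tested.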

How the results depend on the processing

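The results were recomputed under 15 alternatives and without each of the 9 arrays. Oas1a, Oas1g, Oas3, Oasl1 and Oasl2 were called higher at 1 dpi under all of these, and Oas3, Oasl1 and Oasl2 lower from 1 to 3 dpi. Oasl1 ranged from 2.14 to 2.64 at 1 dpi and Oas1a from 1.03 to 1.36. Array signal over background limits Oas1h, which was not tested, and dim probes such as that of Oas1d and probe 3 of Oas1b. Except where a construction shows it (fewer genes, no fold limit), the cause was not tested.

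The median log2 fold change of the 8 members at 1 dpi, 3 dpi and from 1 to 3 dpi became 1.27, 0.45 and -0.65 with quantile normalization, 1.07, 0.39 and -0.53 with scaling to the array median, 1.27, 0.45 and -0.84 in the deposited matrix, and 1.14, 0.40 and -0.61 after centring on the all-gene median. With normexp it was 1.30 at 1 dpi and -0.66 from 1 to 3 dpi, with the mean of all probes -0.76 from 1 to 3 dpi, and with the slide as a block 1.44 at 1 dpi. Without single arrays it ranged from 1.35 to 1.44 at 1 dpi, from 0.47 to 0.55 at 3 dpi and from -0.77 to -0.71 from 1 to 3 dpi, and at 3 dpi the members and the probes called higher each ranged from 0 to 1 (Oas1g, without Ctrl replicate 2 or 3 dpi replicate 1). With no minimum fold change 13 probes were higher at 1 dpi, 5 members and 6 probes at 3 dpi, and 8 members and 13 probes were lower from 1 to 3 dpi, against 8, 0, 0, 3 and 5.

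Genes called numbered 4468 at 1 dpi, 2587 at 3 dpi and 2588 from 1 to 3 dpi, against 2799, 1292 and 1603 with normexp, 16443, 9416 and 13125 with no minimum fold change, and 4489 from 1 to 3 dpi with no filter. The share of higher calls at 1 dpi, 81.1%, became 56.3% (1943 higher, 1510 lower) with quantile normalization, 48.8% (1993, 2087) with the array median, 49.8% (1812, 1824) in the matrix, 62.3% (10249, 6194) with no minimum fold change and 57.2% (2252, 1686) after centring. At 3 dpi 79.4% became 66.8% (1646, 817) in the matrix and 52.7% (4963, 4453) with no minimum fold change. From 1 to 3 dpi 45.2% became 24.9% (399, 1204) with normexp, 62.9% (1619, 954) with quantile normalization, 67.2% (1743, 851) with the array median, 62.6% (1687, 1006) in the matrix, 26.7% (1200, 3289) with no filter and 56.6% (1384, 1061) after centring.

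For the 303 results of named genes a sign turned 8 times with a call before or after. In the deposited matrix Pde12 was -1.39, Siglech -2.08 and Srek1 -1.37 at 1 dpi, and Tlr3 was 1.42, Siglech 1.46 and Srek1 1.07 from 1 to 3 dpi. With the mean of all probes Siglech was -0.15 and Srek1 -0.16 at 1 dpi. The probes that the matrix follows for Pde12 and Siglech were above background on 0 of the 3 arrays at 1 dpi, so these values are no exact differences and do not show a reversal, and the mean for Siglech includes that probe.

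The replicate numbers mark separate experiments with different donors. Whether same-numbered arrays of different groups came from the same experiment is not given by the labels. Deviations of same-numbered arrays correlated at r from -0.11 to 0.13 over 9 pairs. With the replicate number as a block, 4273, 2498 and 2494 genes were called at 1 dpi, 3 dpi and from 1 to 3 dpi, 6 members were higher at 1 dpi, and no named gene changed its call.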
